A study of Homo sapiens with 12 samples.

Results

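The sites described here are cryptic polyadenylation sites, places where transcripts were cleaved and tailed in TDP-43 knockdown neurons but rarely in control neurons, that lie in a 3'UTR or in an extension past it. They were chosen by the feature column of the authors' deposited table of cryptic sites. Of its 457 distinct sites, 304 met the rule: 160 were marked 3'UTR extension and 144 were marked 3'UTR. The other 129 intronic and 24 exonic sites are used only for comparison. The extension sites belonged to 158 named genes and the 3'UTR sites to 139, with 1 3'UTR site left unnamed, and 294 named genes had a site of either kind.

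The neurons were grown from human embryonic stem cells of the established line WA01, in which overexpression of NGN2, a neuronal transcription factor, drives differentiation to cortical neurons. The knockdown group received TDP-43 shRNA and the control group, labelled wild type, received scrambled shRNA, in each case for 7 days. Each group had 3 libraries of 3' end-seq, made with a QuantSeq REV kit that reads the last bases of polyadenylated transcripts, and 3 of stranded total RNA-seq, so that there were 12 libraries in all. All libraries come from a single cell line, and the labels do not say whether replicates were separate cultures, so p-values given by the authors may measure technical spread. The usage of each site is the authors' value for the group, without a value per library, so the spread between replicates is not known and no difference in usage was tested. Depth is unknown, and neither the level of TARDBP, which encodes TDP-43, nor neuronal marker genes were analysed here. QuantSeq REV primes on poly(A), and whether some sites are A-rich stretches inside transcripts was not tested.

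Most human transcripts end where a complex of cleavage and polyadenylation factors recognises a poly(A) signal, typically the hexamer AATAAA or a close variant, shortly upstream of the cleavage point. Many genes carry several such sites in their 3'UTR, and the choice among them sets how much regulatory sequence the messenger RNA carries for its stability, localisation and translation. Neurons are known for long 3'UTRs. TDP-43 is a nuclear RNA-binding protein that prefers GU-rich sequence and acts in splicing and 3' end formation. In frontotemporal dementia (FTD) and in amyotrophic lateral sclerosis (ALS), affected neurons lose it from the nucleus.

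The bases just upstream of a site are shown because a poly(A) signal is usually found there. They could be read for 2 of the 304 sites, both in 3'UTRs, because RefSeq promoter windows (GRCh38.p14) of neighbouring genes cover them. Each line below ends at the cleavage position given by the authors and runs 5' to 3' on the strand of the transcript, with the hexamer AATAAA in capitals.
MPDU1: acttttataaaacaaAATAAAaattaagtc
PPOX: gcgattagttAATAAAacaatgaaacattg
The MPDU1 stretch is chr17:7584221-7584250 and the PPOX stretch is chr1:161177982-161178011, both on the plus strand. RefSeq places MPDU1 from 7583647 to 7588212. Its site, though marked 3'UTR, thus lies near the start of the RefSeq gene and 3962 nt before its end. The PPOX site lies 2 nt before its RefSeq end. The hexamer ended 9 nt before the site in MPDU1 and 14 nt before it in PPOX. For scale, the first 30 bases of the 35116 RefSeq promoter windows were searched too. AATAAA was present in 1.498% when they were read on the strand of the gene, and in 2.78% when read on either strand. Promoter windows are not sequence near 3' ends and base composition was not matched. With 2 sites read, this scale cannot show an enrichment of the hexamer. MPDU1 encodes a protein needed to use dolichol-linked mannose in glycosylation, and PPOX encodes an enzyme of haem synthesis. The MPDU1 site had 30.2% usage in TDP-43 shRNA neurons and 0.438% in scrambled shRNA neurons. The PPOX site had 18.7% in TDP-43 shRNA neurons and 4.12% in scrambled shRNA neurons.

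Sites in extensions were used less in control neurons than sites in 3'UTRs, and had similar levels in the knockdown. Usage is a fraction given by the authors for each group, printed here as a percent, and its denominator is not stated. In bulk libraries such as these, fewer cells using a site and less use of it per cell cannot be told apart. In TDP-43 shRNA neurons the median usage was 18.2% over the 160 extension sites (lowest 10.8%, highest 78.1%) and 19.0% over the 144 3'UTR sites (lowest 10.7%, highest 58.5%). In scrambled shRNA neurons the median was 2.76% in extensions (lowest 0.140%, highest 5.93%) and 3.60% in 3'UTRs (lowest 0.148%, highest 5.99%). The lower and upper quartiles in the knockdown were 15.2% and 22.8% in extensions and 15.1% and 25.2% in 3'UTRs. In control neurons they were 1.93% and 4.15% in extensions and 2.42% and 4.69% in 3'UTRs. For comparison, exonic sites had medians of 20.9% in the knockdown and 4.21% in control neurons. Intronic sites had medians of 20% in the knockdown and 3.41% in control neurons.

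How sites entered the table bounds these values. Over all 457 sites control usage did not exceed 5.99% and the difference between knockdown and control was at least 10.03 percentage points, so that every listed site is higher in the knockdown by how the table was made. The difference is called the gain below. Close to that floor, 21 extension sites and 19 3'UTR sites had a gain under 11 points. The median gain was 15.5 points in extensions, with a 95% order-statistic interval of 14.2 to 16.4, and 15.05 points in 3'UTRs, with an interval of 13.6 to 16.4. For control usage the intervals were 2.46% to 3.13% in extensions and 3.15% to 4.08% in 3'UTRs. These intervals treat sites as units and say nothing about the spread between libraries.

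Because control usage differed more between the features than the gain did, the ratio of knockdown to control usage differed too. Its median was 7.27 in extensions (95% order-statistic interval 6.68 to 8.09) and 5.63 in 3'UTRs (5.20 to 6.23). Between these lay the medians of intronic sites, 6.36, and exonic sites, 6.12. Ratios of 10 or more were found at 50 of 160 extension sites (31.2%) and 23 of 144 3'UTR sites (16.0%). Control usage was under 2% at 45 extension sites (28.1%) and 25 3'UTR sites (17.4%). At the upper end, usage in TDP-43 shRNA neurons reached 20% at 65 extension sites (40.6%) and 62 3'UTR sites (43.1%), and 50% at 8 extension sites and 1 3'UTR site. Sites with higher control usage tended to have higher knockdown usage, with Spearman's rho of 0.453 over the 160 extension sites and 0.486 over the 144 3'UTR sites. Those points share their libraries and the bounds on entering the table.

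**Figure D1:**
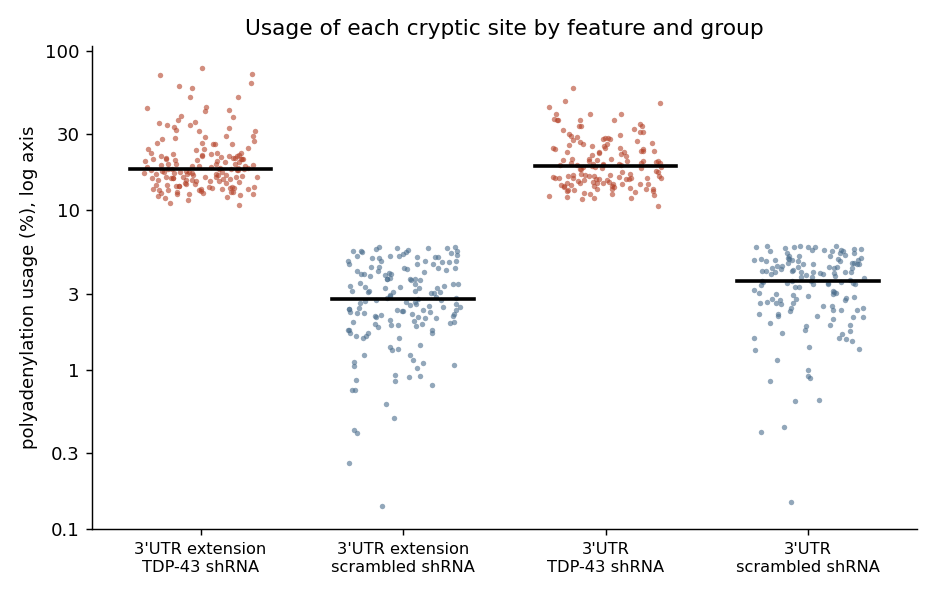
Polyadenylation usage (%, log axis) of every site, with 1 point per site and feature in TDP-43 shRNA and in scrambled shRNA neurons, and the median as a black line. The medians stand at 18.2% and 2.76% for the 160 extension sites and at 19.0% and 3.60% for the 144 3'UTR sites, and the lowest control points reach 0.140% and 0.148%.

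The extension sites with the highest usage in the knockdown were those of ELK1, TKFC and PPIE. ELK1, an ETS transcription factor gene whose product responds to mitogen-activated kinases, had 78.1% in TDP-43 shRNA neurons and 1.90% in scrambled shRNA neurons. TKFC, which encodes a dihydroxyacetone kinase, had 71.5% in TDP-43 shRNA neurons and 5.56% in scrambled shRNA neurons. PPIE, a cyclophilin found in spliceosomes, had 70.4% in the knockdown and 4.58% in control neurons. These 3 sites stood above the rest of the extension sites. SIX3, a homeobox gene of forebrain and eye development, had 62.6% in the knockdown and 4.84% in control neurons. PSMC2, which encodes an ATPase of the 26S proteasome, had 60.1% in the knockdown and 5.49% in control neurons.

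The sites that followed had lower usage in the knockdown. RNF208, a RING finger protein gene, had 58.0% in the knockdown and 4.83% in control neurons. DPYSL5, a member of the collapsin response mediator family that acts in axon growth, had 51.3% in the knockdown and 3.96% in control neurons. RFNG, a fringe glycosyltransferase that modifies Notch receptors, had 51.1% in the knockdown and 2.17% in control neurons. The zinc finger gene ZNF384 had 44.5% in the knockdown and 3.13% in control neurons, and the brain glycosyltransferase gene MGAT5B had 44.0% in the knockdown and 3.43% in control neurons. SLC6A17, a synaptic vesicle transporter of neutral amino acids, had 42.7% in the knockdown and 0.805% in control neurons, a ratio of 53.0. SCAF4, which encodes a protein that acts in polyadenylation site choice and termination, had 26.3% in the knockdown and 2.16% in control neurons at a site 339 nt past the RefSeq end.

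The lowest control values in extensions went with the highest ratios. ATP6V1H, a subunit of the lysosomal proton pump, had 16.5% in the knockdown and 0.140% in control neurons, a ratio of 118. The downstream of the 2 extension sites of C3orf14 had 14.1% in the knockdown and 0.263% in control neurons, a ratio of 53.6. DYRK1B, a protein kinase gene, had 18.1% in the knockdown and 0.405% in control neurons, a ratio of 44.7. At the other end, TRAM1L1 had the highest control usage, with 18.8% in the knockdown and 5.93% in control neurons. NLE1, a ribosome assembly factor gene, had the lowest knockdown usage of the extension sites, with 10.8% in the knockdown and 0.747% in control neurons.

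The 3'UTR sites with the highest usage in the knockdown were those of FEM1A, PLPPR5 and KNDC1. FEM1A, which encodes a substrate receptor of a cullin ubiquitin ligase, had 58.5% in TDP-43 shRNA neurons and 4.27% in scrambled shRNA neurons. PLPPR5, a phospholipid phosphatase-related membrane protein, had 48.1% in the knockdown and 2.50% in control neurons. KNDC1, a guanine nucleotide exchange factor for Ras, had 47.3% in the knockdown and 5.72% in control neurons at the upstream of its 2 sites. WDR18, a ribosome assembly factor gene, had 44.5% in the knockdown and 4.95% in control neurons. NSL1, a kinetochore subunit gene, had 40.3% in the knockdown and 5.56% in control neurons, and the tyrosine kinase gene JAK2 had 40.3% in the knockdown and 3.14% in control neurons. FEM1A alone among the 3'UTR sites passed 50%.

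Next in order came an unnamed site at position 73796520 on the minus strand of chromosome 10, with 40.2% in the knockdown and 5.53% in control neurons. RefSeq places the ends of ZSWIM8-AS1 and NDST2-ZSWIM8-AS1 there, inside ZSWIM8. DTNA, which encodes a dystrobrevin, had 37.2% in the knockdown and 4.49% in control neurons. BMS1, a GTPase of ribosome assembly, had 37.0% in the knockdown and 3.99% in control neurons. AP1M1, the medium subunit of the AP-1 clathrin adaptor, had 36.9% in the knockdown and 1.68% in control neurons.

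High ratios in 3'UTRs came with very low control usage as well. NDUFA5, a subunit of mitochondrial complex I, had 11.7% in the knockdown and 0.148% in control neurons, a ratio of 79.5. MPDU1, whose sequence is printed above, had a ratio of 68.9. SMC1A, a cohesin subunit gene, had 19.9% in the knockdown and 0.646% in control neurons, a ratio of 30.8. BRI3BP had the lowest knockdown usage of the 3'UTR sites, with 10.7% in the knockdown and 0.410% in control neurons.

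**Figure D2:**
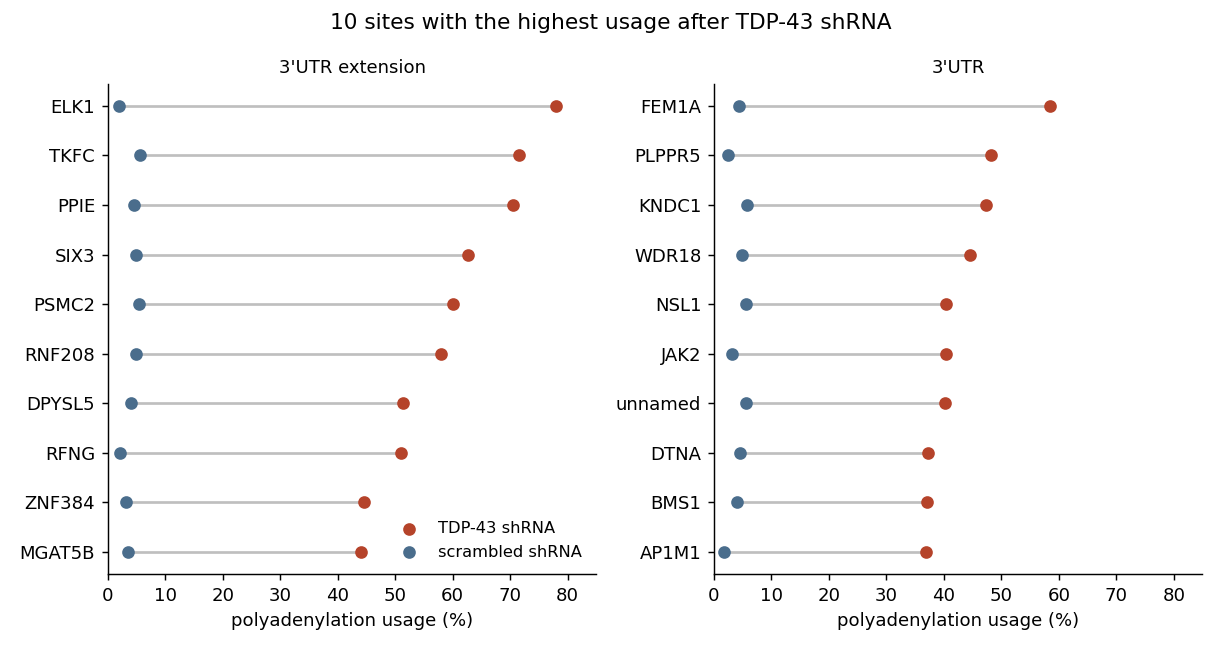
Usage (%) of the 10 sites of each feature with the highest usage after TDP-43 shRNA, in TDP-43 shRNA neurons (red) and scrambled shRNA neurons (blue), joined by a line for each site. Extension sites run from 78.1% in ELK1 to 44.0% in MGAT5B and 3'UTR sites from 58.5% in FEM1A to 36.9% in AP1M1, while every control point lies under 6%.

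Nearly all extension sites lay past the annotated end of their gene, while 3'UTR sites clustered at that end. The labels themselves place a site in a 3'UTR or past it. That extension sites lie past the end was therefore largely fixed in advance. Positions are those of the authors' table in hg38, set against the RefSeq gene of the same name in GRCh38.p14, the same assembly. All 160 extension sites and 143 of the 144 3'UTR sites could be placed in this way. Past the RefSeq end were 153 extension sites (95.6%), at a median of 2876 nt. Of the 3'UTR sites 66 (46.2%) lay within 24 nt of the RefSeq end, against 2 of the extension sites. Another 70 3'UTR sites lay more than 24 nt before it, at a median of 2727 nt.

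Distances past the end filled the range up to about 5000 nt and then stopped. Up to 1000 nt past the end lay 18 extension sites, between 1000 and 2000 nt 30, between 2000 and 3000 nt 32, between 3000 and 4000 nt 35, between 4000 and 5000 nt 34, and beyond that 4. The farthest were TRIM58 at 17268 nt, ZNF749 at 9024 nt and SVIP at 8363 nt, followed by PDHA1 at 5001 nt. The limit used by the authors for an extension is not given in the sources used here. Among the sites with the highest usage, ELK1 lay 3904 nt past the end, TKFC 2756 nt, PPIE 2193 nt, SIX3 2013 nt and PSMC2 4553 nt, while RNF208 lay 676 nt past it. The ELK1 site is position 47631616 on the minus strand of chromosome X, the TKFC site 61356182 on the plus strand of chromosome 11 and the PPIE site 39766107 on the plus strand of chromosome 1. In 3'UTRs the FEM1A site, at 4801271 on the plus strand of chromosome 19, and the PLPPR5 site, at 98890247 on the minus strand of chromosome 1, each lay 2 nt before the RefSeq end.

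Usage of an extension site had no visible relation to how far past the end it lay. In TDP-43 shRNA neurons the median was 17.2% over the 48 sites up to 2000 nt past the end, 18.9% over the 67 sites between 2000 and 4000 nt, and 17.8% over the 38 sites beyond 4000 nt. Spearman's rho between distance and usage was 0.0237 over the 153 sites, which share their libraries. In 3'UTRs the 66 sites at the RefSeq end and the 77 others also had similar values, with medians of 19.5% and 18.2% in the knockdown and 3.46% and 3.61% in control neurons.

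In a few genes the feature and the RefSeq gene differed. The extension sites of LRIF1, ZSCAN25, ZNF138, ZFP62 and NME6 lay 68501, 65495, 25945, 16707 and 2270 nt before the RefSeq end, inside the RefSeq gene. Conversely, 7 3'UTR sites lay more than 24 nt past the RefSeq end, including INO80C by 16113 nt, the kinase gene MAPK10 by 10076 nt and WDR18 by 3881 nt. Distances within a gene are genomic and include introns, and 13 3'UTR sites lay over 20000 nt before the end. The most distant was PCDH9, a protocadherin gene, at 898181 nt before the end, with 23.5% usage in the knockdown and 2.72% in control neurons.

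**Figure D3:**
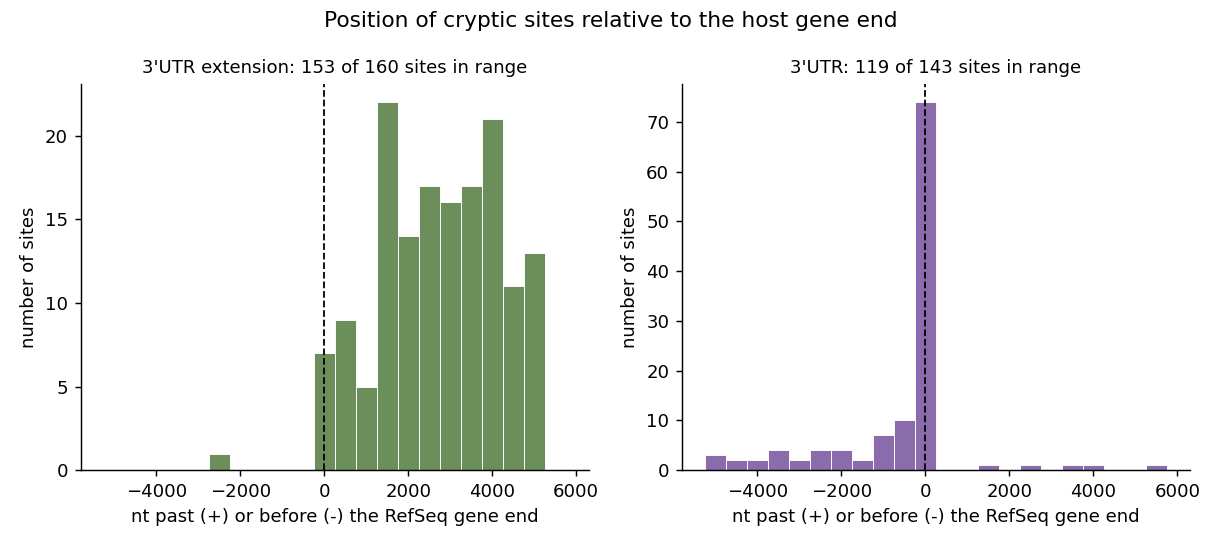
Number of sites by distance from the RefSeq gene end (nt, bins of 500 nt, positive past the end), for extension sites on the left and 3'UTR sites on the right, with the end as a dashed line. Extension sites fill the range up to about 5000 nt past the end (153 of 160 are in view), and 3'UTR sites peak at the end itself, where 66 lie within 24 nt (119 of 143 are in view).

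More extension sites than 3'UTR sites lay inside a neighbouring gene. This follows in part from the label, since nearly all extension sites lie past the end of their own gene. The share for downstream sequence in general was not computed, so the counts do not show a trait of the cryptic sites. Inside another RefSeq gene lay 61 of 160 extension sites (38.1%, 95% exact binomial interval 30.6 to 46.1) and 31 of 144 3'UTR sites (21.5%, 15.1 to 29.1). For 41 of the 61 the other gene was on the opposite strand, for 2 it was on the same strand, and for 18 the tables used here give no strand. At 3'UTR sites the other gene was on the opposite strand for 19, on the same strand for 5 and without a strand for 8, with the unnamed site counted under more than 1 heading. The other gene was protein-coding at 43 extension sites. The TKFC site lay inside CYB561A3 and the PPIE site inside BMP8B, both transcribed on the opposite strand, and the PSMC2 site lay inside SLC26A5. On the same strand the TANGO6 site lay inside HAS3, a hyaluronan synthase gene, so its 3' ends cannot be assigned to either gene by position. The TMEM63C site coincided with the end of LOC124903351, also on the same strand. Median usage in the knockdown was 19.0% for extension sites inside another gene and 17.8% for those outside.

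Several genes had 2 sites. Of 9 such genes, ATP6V1H, NME6 and TLN1 combined a 3'UTR site with an extension site. In ATP6V1H the extension site lay 2501 nt past a 3'UTR site that had 19.2% in the knockdown and 5.03% in control neurons. NME6, a nucleoside diphosphate kinase family gene, had 26.5% in the knockdown and 5.06% in control neurons at the site marked extension, which lies inside its RefSeq gene as given above, and 14.7% and 3.61% in the same groups at the 3'UTR site 1383 nt upstream. TLN1, the talin gene that links integrins to actin, had 15.8% in the knockdown and 0.503% in control neurons at the extension site, and 15.9% and 3.63% in the same groups at the 3'UTR site 4544 nt upstream. The extension site was used less in control neurons than the 3'UTR site in ATP6V1H and TLN1 and more in NME6.

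In the other 6 genes both sites were of the same kind. The KNDC1 sites lay 1250 nt apart, and the downstream site had 30.9% in the knockdown and 1.59% in control neurons, so that the summed usage of the pair was 78.3% in the knockdown and 7.31% in control neurons. The ATMIN sites, in a zinc finger gene of the DNA damage response, lay 113 nt apart, with a summed usage of 50.9% in the knockdown and 8.03% in control neurons. Both sums assume that the sites of a gene share the same denominator, which is not stated. ARMC8 had 2 sites 164 nt apart and EXD3 2 sites 36263 nt apart in 3'UTRs. MSRB2 and C3orf14 had 2 extension sites each, 1884 and 904 nt apart. Sites of the same gene are not independent. An intronic or exonic cryptic site was also present in 1 of 158 extension hosts (0.633%), CGREF1, and in 0 of 139 3'UTR hosts. Intronic sites had only 110 host genes and exonic sites 20. The overlap to be expected over all genes was not computed, so these counts do not show that the kinds of site avoid each other.

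Sites in 3'UTRs were often the rising site of a pair in the authors' deposited table of 3' end-seq changes, which listed no extension site. That table comes from the same libraries and gives 2220 genes a falling and a rising site. Rising is read as rising in the knockdown, because 199 of the 457 cryptic sites were rising sites and none was a falling site. Of the 144 3'UTR sites 103 (71.5%, 95% exact binomial interval 63.4 to 78.7) were the rising site of their gene at the same position. Among the extension sites it was 0 of 160, also when any position within 100 nt was accepted. Over cryptic sites of every feature it was 43.5%. That share counts the 160 extension sites, 0 of them rising, and is therefore lower than it would be without them. The share over intronic and exonic sites alone was not computed, so 71.5% is not shown to be particular to 3'UTR sites. Even ELK1, TKFC and PPIE were absent from the pair table, with gains of 76.2, 65.9 and 65.8 percentage points. Whether the pair table could hold a site marked extension at all was not tested, so the absence does not compare the features. Rising 3'UTR sites had median usage of 20.03% in the knockdown and 3.86% in control neurons. The other 41 3'UTR sites had 15.9% in the knockdown and 3.14% in control neurons.

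Most rising 3'UTR sites were in genes called longer. The authors' deposited table called 84 of the 103 longer (81.6%) and 19 shorter, against 84.7% longer of the 2220 genes listed, so the share is near the background. By how the calls are made, the rising site lay downstream of the falling site in all 84 longer genes and upstream of it in all 19 shorter genes, and the positions at the gene end follow in part from that. When the call was longer, 50 of 84 rising sites lay within 24 nt of the RefSeq end and 83 of 84 falling sites lay more than 24 nt before it. When the call was shorter, 0 of 19 rising sites lay at the RefSeq end and 8 of 19 falling sites did. Rising and falling sites were a median of 3352.5 nt apart in longer and 3223 nt apart in shorter genes. Median usage in the knockdown was 19.6% at longer and 23.4% at shorter rising sites.

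The size of the index change in the authors' deposited table of pairs was close to the gain in usage at the same site. Written on the scale of fractions, its ratio to the gain had a median of 0.999 over the 103 sites, and 94 lay within 0.1 of a ratio of 1. Since the 2 tables count the same libraries, this gives their relation and is no second measurement. FEM1A was longer by 0.529, PLPPR5 by 0.461, KNDC1 by 0.424 and WDR18 by 0.405 in the authors' deposited table. Among genes called shorter, DTNA changed by -0.345, RPS6KA2, which encodes a ribosomal S6 kinase, by -0.320 and MPDU1 by -0.301 in the authors' deposited table. The falling MPDU1 site lay 3936 nt downstream of the site whose sequence is printed above. SMC1A was shorter by -0.197 and SYP, the synaptic vesicle protein synaptophysin, by -0.157 in the authors' deposited table. The ratio was farthest from 1 in CHRNB2, a nicotinic receptor subunit gene, at 1.97, with an index change of -0.216 in the authors' deposited table, beside 15.8% usage in the knockdown and 4.81% in control neurons.

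**Figure D4:**
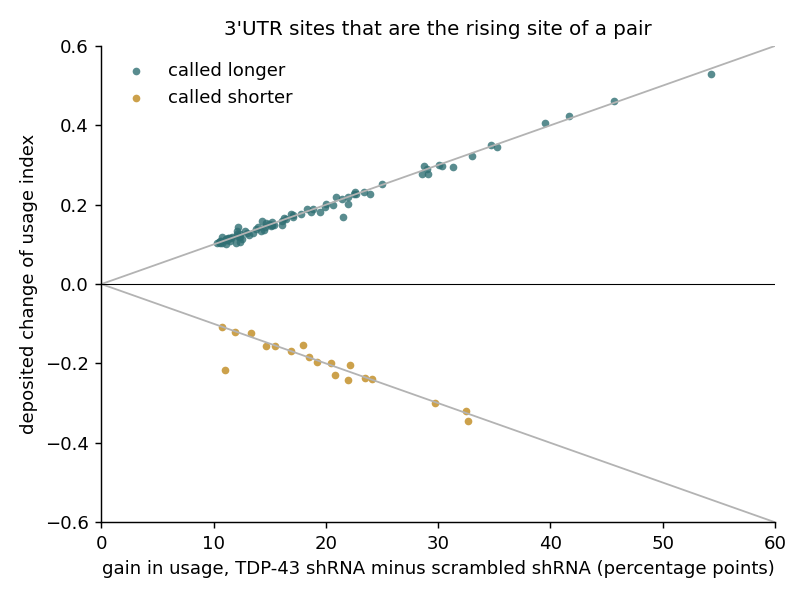
Change of the usage index in the authors' deposited table of pairs against the gain in usage (TDP-43 shRNA minus scrambled shRNA, percentage points) for the 103 3'UTR sites that are the rising site of a pair, with genes called longer above 0 and shorter below 0. Grey lines mark equal size on both axes, the 84 longer and 19 shorter genes lie along them, and CHRNB2 (gain 10.98, index -0.216) lies farthest off in ratio.

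Where a gene with an extension site was in the pair table at all, its rising site was another site upstream. The pair table listed 24 of the 158 extension hosts (15.2%) and 110 of the 139 3'UTR hosts (79.1%), or 1.08% and 4.95% of its 2220 genes. The share of 3'UTR hosts rests largely on the 103 cryptic sites that are rising sites themselves, so these shares do not compare the features. In all 24 genes the extension site lay downstream of the rising site, by a median of 2943 nt and by at least 116 nt. This order was largely fixed in advance, since no extension site is in the pair table and nearly all lie past the RefSeq end. That rising site lay within 24 nt of the RefSeq end in 18 of the 24. These genes had a listed rising site, mostly at the annotated end, and a cryptic site farther downstream. Both were higher in the knockdown by how the tables were made.

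Of the 24 genes, 22 were called longer and 2 shorter in the authors' deposited table. NLE1 was longer by 0.561, IFITM10 by 0.517, the peroxisomal import receptor gene PEX5 by 0.345 and DPYSL5 by 0.184 in the authors' deposited table. In DPYSL5 the rising site stood at the RefSeq end, 942 nt before the extension site with 51.3% usage in the knockdown. IFITM10 had 41.9% in the knockdown and 3.71% in control neurons at the extension, 3744 nt past its rising site. RITA1, a tubulin-binding regulator of Notch signalling, was shorter by -0.146 in the authors' deposited table, and its extension site had 15.9% in the knockdown and 2.91% in control neurons.

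RNA-seq, made from other libraries, listed hosts of both kinds, nearly all as distal. In the authors' deposited table of RNA-seq polyadenylation, 95.0% of the 841 genes carry the call distal, and the group that was subtracted is not stated. It listed 25 extension hosts (15.8% of 158 and 2.97% of the table) and 33 3'UTR hosts (23.7% of 139 and 3.92% of the table). For comparison, 10.8% of the 2092 named genes of the 3' end-seq pair table were listed there, as were 7 of 110 intronic hosts (6.36%) and 0 of 20 exonic hosts. All 25 extension hosts were distal, while 30 3'UTR hosts were distal and 3 proximal, which for both features is near the background of the table.

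Changes of the RNA-seq index are on another scale than usage, since some exceed 1. The median over extension hosts was 0.933 and over 3'UTR hosts 0.759 in the authors' deposited table. DYRK1B changed by 2.36 (adjusted p 6.69e-18), the splicing factor gene PRPF3 by 1.84 (adjusted p 1.18e-14) and PNP, a purine nucleoside phosphorylase, by 1.75 (adjusted p 1.08e-13) in the authors' deposited table. PSMC2 changed by 1.70, the chromatin protein gene HMGB2 by 1.64 and NGFR, the p75 neurotrophin receptor, by 1.37 in the authors' deposited table. Among 3'UTR hosts AP1M1 changed by 2.78 (adjusted p 2.34e-50), DPH5, an enzyme of diphthamide synthesis, by 2.06 and UQCRB, a subunit of mitochondrial complex III, by 1.38 in the authors' deposited table. The 3 proximal hosts were RPS6KA2 at -1.06, CISD2, an iron-sulphur protein gene, at -0.69 and SYP at -0.18 in the authors' deposited table. These 3 were also called shorter in 3' end-seq. PRPF3, high by this index, had 11.6% usage in the knockdown and 1.15% in control neurons at its extension site, among the lowest of the extension sites.

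**Figure D5:**
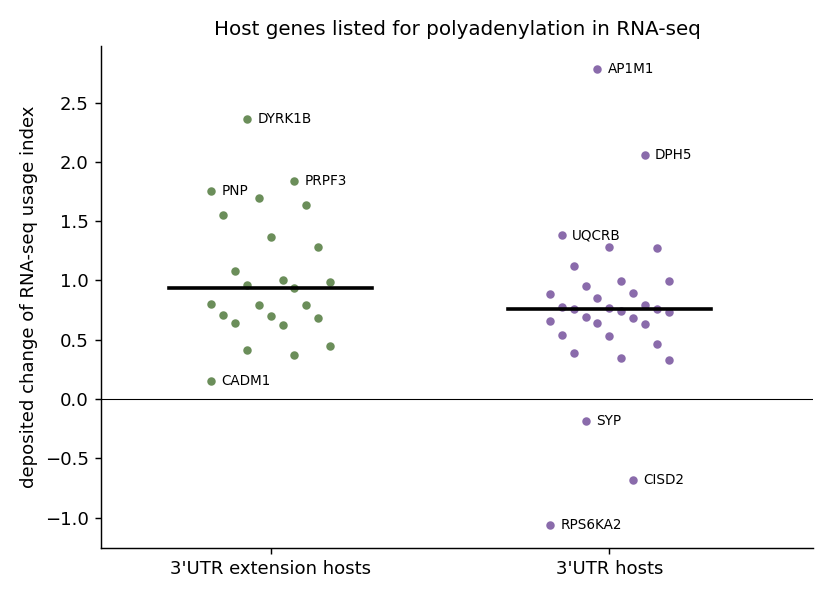
Change of the RNA-seq usage index in the authors' deposited table for the 25 extension hosts and the 33 3'UTR hosts that it lists, 1 point per gene, with the median as a black line and the outermost genes named. Extension hosts lie above 0, between 0.16 for CADM1 and 2.36 for DYRK1B, and 3 3'UTR hosts (SYP, CISD2 and RPS6KA2) lie below 0.

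Few extension hosts were in both polyadenylation tables. Of the 25 extension hosts listed in RNA-seq only IFITM10 was also in the pair table from 3' end-seq. IFITM10 was longer there and distal here at 0.79 in the authors' deposited table. For comparison, 225 of the 841 genes listed in RNA-seq were in the pair table. That table held 15.2% of all extension hosts and 79.1% of all 3'UTR hosts, so the features start from unequal shares. Of the 33 3'UTR hosts listed in RNA-seq 29 were in the pair table, and all 29 had matching directions, longer with distal or shorter with proximal, where distal is read as more distal use in the knockdown. Over all 225 genes found in both tables by symbol the directions matched in 96.4%, so the count is near the background. Among extension hosts listed in RNA-seq, median usage in 3' end-seq was 19.6% in the knockdown and 2.54% in control neurons. Among those not listed it was 18.2% in the knockdown and 2.78% in control neurons. For 3'UTR sites, it was 20.3% in the knockdown and 3.80% in control neurons in listed hosts, and 18.5% and 3.59% in the same groups in hosts not listed.

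The share of host genes with changed splicing was near that of the genes in the pair table. The authors' deposited table of splicing clusters listed 32 extension hosts (20.3% of 158) and 33 3'UTR hosts (23.7% of 139), which are 1.33% and 1.37% of its 2411 genes, beside 19.2% of the 2092 named genes of the pair table. An intron with an unannotated splice site was listed in 24 extension hosts (15.2%) and 23 3'UTR hosts (16.5%), near the 15.3% of the 2092 named genes of the pair table. Changes of an intron's share are given next by absolute size, since the group that was subtracted is not stated. The largest were 27.7 percentage points in ITFG2 and 27.5 in TIPIN among these extension hosts in the authors' deposited table. Among the 3'UTR hosts named here, the change was 25.5 points in GPR173 and 24.4 in DTNA in the authors' deposited table. Listed in all 3 tables were 7 3'UTR hosts (GPAT4, GPR173, MCTS1, SH3BP2, LUC7L3, SUGT1 and ZNF207) and 0 extension hosts. All 7 were longer and distal, and GPAT4, a glycerol phosphate acyltransferase gene, had the highest usage of them with 33.6% in the knockdown and 4.59% in control neurons. Both polyadenylation tables held 29 3'UTR hosts but only 1 extension host, so the counts in all 3 tables do not compare the features. The share of all genes that is in all 3 tables was not computed.

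The splicing table had an intron end within 2000 nt upstream of 5 3'UTR sites on the same strand. It had none in that window of an extension site, but most extension sites lay more than 2000 nt past the end of their gene, so the features are not compared by these counts. In PPOX an intron from 161170769 to 161176849 on chromosome 1, with an unannotated 3' splice site, changed by 23.7 points in the authors' deposited table. The FDR of 0.0194 is that of its whole splicing cluster. Which group was subtracted is not stated for these changes, so their direction is not known. The PPOX intron ended 1162 nt before the PPOX site whose sequence is printed above, and PPOX was longer by 0.144 in 3' end-seq in the authors' deposited table. At EFHD2 and ASPHD1 the largest such changes were 4.3 and 3.9 points in the authors' deposited table, 1461 and 132 nt from the site. At CHFR, in an intron assigned to GOLGA3, and at TSNAX-DISC1 the largest changes were 0.2 and -1.1 points in the authors' deposited table.

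Of the 450 genes on the functional and marker lists, 13 (2.89%) had a site of either kind, beside 1.46% of the 20056 protein-coding genes of RefSeq, whose expression was not analysed here. Of 36 ALS and FTD genes, 0 had a site of either kind, as did none of the 4 lists of markers for neurons, stem cells, astrocytes and dividing cells. ELK1 and SIX3 in extensions and SMC1A in a 3'UTR were on a list of 14 genes reported as polyadenylation targets of TDP-43, a list that was written with such reports known. Of 88 homeobox and ETS transcription factors, 2 had an extension site (the same ELK1 and SIX3) and 1 a 3'UTR site, SATB1, with 23.0% in the knockdown and 5.21% in control neurons. Of 45 proteasome subunits PSMC2 alone had a site, and of 30 cleavage, polyadenylation and termination factors SCAF4 alone. Of 63 RNA-binding proteins HNRNPR and HNRNPA0 had a 3'UTR site, each with 19.6% in the knockdown, and with 4.38% and 4.93% in control neurons.

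The other listed hosts were ion channel, synaptic vesicle and microtubule genes. Of 60 voltage-gated ion channel genes, KCNC1 had 19.6% in the knockdown and 4.41% in control neurons and KCNC4 had 13.9% in the knockdown and 1.57% in control neurons, both potassium channels of fast-spiking neurons. Of 47 presynaptic release genes SYP had 18.2% in the knockdown and 3.50% in control neurons. Of 68 microtubule motors and associated proteins DYNC1H1, the dynein heavy chain, had 11.9% in the knockdown and 1.16% in control neurons at the RefSeq end, and DPYSL5 was the extension host. By RefSeq type, 158 of 158 extension hosts and 138 of 139 3'UTR hosts were protein-coding genes, and 6 of each carried a ZNF zinc finger name.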

How the data were processed

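Neurons derived from WA01 cells were profiled after 7 days of TDP-43 or scrambled shRNA, with 3 libraries of 3' end-seq and 3 of RNA-seq per group. The build is hg38, and tools named in the submitters' processing notes, with no version, are STAR, SAMtools, fastp, DESeq2 and Salmon. How cryptic sites and polyadenylation changes were called is not given in the sources used here.

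Cryptic site usage is a fraction that the authors deposited with 1 value per group, shown here as a percent. Index changes and changes of intron share are a score that the authors deposited, and adjusted p-values and FDR are p-values from the authors' deposited tables. These 5 tables list changed items only. Among 459 lines of cryptic sites there were 457 distinct sites, since the ACKR1 and OXSM sites each stand on 2 lines with slightly different usage, of which the first was used. Another table holds gene values in 6 columns, 1 per sample, that no label ties to samples, and it was not used. The planned comparison of host gene expression was therefore not run.

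Sites were placed against RefSeq genes by symbol or synonym (158 extension and 143 3'UTR sites by symbol, 2 extension sites by synonym). RefSeq promoter windows gave strands and sequences. AATAAA was searched in the 30 bases up to a site on its own strand. Order-statistic intervals of medians and exact (Clopper-Pearson) intervals of shares are at 95% and cover neither replicate spread nor depth. The functions used were tested on simulated data. The named sites are the 10 with the highest knockdown usage per feature, the extremes of ratio, usage and distance, genes with 2 sites, members of 13 gene lists (450 genes) and genes in all 3 other tables. Others, such as those described with the pair, RNA-seq and splicing tables, were chosen after their values were seen. Members and lists were chosen with earlier results of these data known. Values were computed in Python 3.11.15 with SciPy 1.17.1, pandas 2.3.3 and numpy 2.4.6, and drawn with matplotlib 3.10.9. Some items are not reported here.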

Additional observations from a re-analysis of the deposited data

How the results depend on the processing

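Of 55 recomputed values 51 stayed within the spread of the sites or within 1.5 times the count, and 4 did not. These 4 were counts that follow the usage threshold itself: with 30% in place of 20%, 24 extension sites and 21 3'UTR sites passed in the knockdown, and with 15%, 121 and 108 did. Taking 1 site per gene, leaving out unnamed sites, keeping genes with a single cryptic site, counting repeated lines, using RefSeq in place of the authors' feature (164 extension and 139 3'UTR sites) or, chosen after seeing the data, the second line of the repeated sites kept the median knockdown usage between 18.2% and 18.5% in extensions. It stayed at 19.0% in 3'UTRs under the same alternatives. A tolerance of 10 or 100 nt at the RefSeq end, also chosen after seeing the data, gave 59 and 70 3'UTR sites in place of 66, and 2 and 3 extension sites in place of 2. Not run were the alternatives for host gene expression, which was not analysed here, and for poly(A) signal windows, since no genome sequence was used. No paired analysis was possible because the usage values are given per group and carry no replicate. Depth is unknown, so how firmly a usage near the 10-point floor is known cannot be given.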
